A study of Homo sapiens with 14 samples.

Results

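The GREB1 locus was taken as the gene's span in the RefSeq table of GRCh38.p14 with 50 kb on each side, and its members are all regions of the 4 deposited peak lists that touch that window. The span runs from 11482888 to 11642788 on chromosome 2 (gene ID 9687, 159.9 kb) and the window from 11432888 to 11692788 (259.9 kb). The window held 127 of the 230789 regions of the 4 lists. Of these, 31 of 39593 came from the progesterone receptor (PR) list under vehicle and 59 of 112534 from the PR list under progesterone (P4). The POLR3A lists gave 12 of 29968 regions under vehicle and 25 of 48694 under P4.

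The regions came from chromatin immunoprecipitation sequencing of T47D, an established breast cancer line positive for the oestrogen receptor and PR, grown with 5% FBS and insulin. Cells received ethanol, the vehicle, or P4 for 1 h, and chromatin was taken with an antibody against PR or against POLR3A. There were 3 replicate libraries in each of the 4 groups and 1 pooled input for each treatment. There was 1 list per group, so no value below had a replicate check, no difference between treatments was tested, and the depth of the libraries is unknown.

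GREB1 stands for growth regulating estrogen receptor binding 1. Its transcription rises when oestrogen activates the oestrogen receptor in breast cancer cells, and its protein is a cofactor of that receptor. PR is a nuclear receptor that binds DNA as a dimer at progesterone response elements once it holds hormone. POLR3A is the largest subunit of RNA polymerase III, which makes transfer RNAs, 5S ribosomal RNA and other short RNAs, whereas protein-coding genes such as GREB1 are transcribed by RNA polymerase II. RNA was not measured in the files used here, so the hormone response of GREB1 is background and not a result. The table lists 29 transcripts for the gene, 3 curated and 26 predicted, without their separate start sites or exons. Positions are therefore given as distance from the left end of the span, and exons and introns could not be told apart.

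The RefSeq promoter table, which gives 250 bases before to 50 after a gene's start, has no entry for GREB1. One promoter in the window carried regions, that of E2F6, a repressor of the E2F family whose gene lies left of GREB1. It is shown because both POLR3A lists and the PR P4 list had a region there. The strand is minus, the place chr2:11466112-11466411, and capitals mark the 163 bases that all 3 regions covered. The mature form of the microRNA made from within GREB1, at chr2:11540652-11540671 on the minus strand, is shown because PR regions under both treatments and a POLR3A region under P4 covered its gene, MIR4429. Capitals mark its seed, bases 2 to 8.
E2F6 promoter: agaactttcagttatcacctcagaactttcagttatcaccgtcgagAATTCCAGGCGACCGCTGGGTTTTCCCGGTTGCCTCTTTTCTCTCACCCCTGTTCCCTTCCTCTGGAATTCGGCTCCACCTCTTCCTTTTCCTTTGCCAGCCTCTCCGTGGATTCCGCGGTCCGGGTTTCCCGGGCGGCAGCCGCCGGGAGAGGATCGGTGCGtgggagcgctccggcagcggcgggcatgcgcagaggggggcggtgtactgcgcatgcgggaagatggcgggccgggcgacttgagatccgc
hsa-miR-4429: aAAAGCUGggcugagaggcg

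The first comparison was between treatments for PR. PR regions lay over GREB1 under vehicle, without added P4, and the P4 list held the same strong sites with further regions between them. Of the 31 vehicle regions, 28 had their summit in the gene body, 2 in the left flank and 1 in the right flank. Under P4 these counts were 51, 4 and 4. That is 17.5 regions per 100 kb of gene body under vehicle and 31.9 under P4, against 4.00 and 8.00 in the left flank and 2.00 and 8.00 in the right flank. PR regions covered 4.55% of the window under vehicle and 10.2% under P4.

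The P4 count was 1.90 times the vehicle count. Over chromosomes 1 to 22 and X the PR list under P4 was 2.86 times as long as under vehicle (111515 and 38933 regions). With the P4 list cut by −log10 q to the 38933 regions of the vehicle list, the window held 32 regions under P4 and 31 under vehicle. The part of list length in the difference was not tested further.

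**Figure D1:**
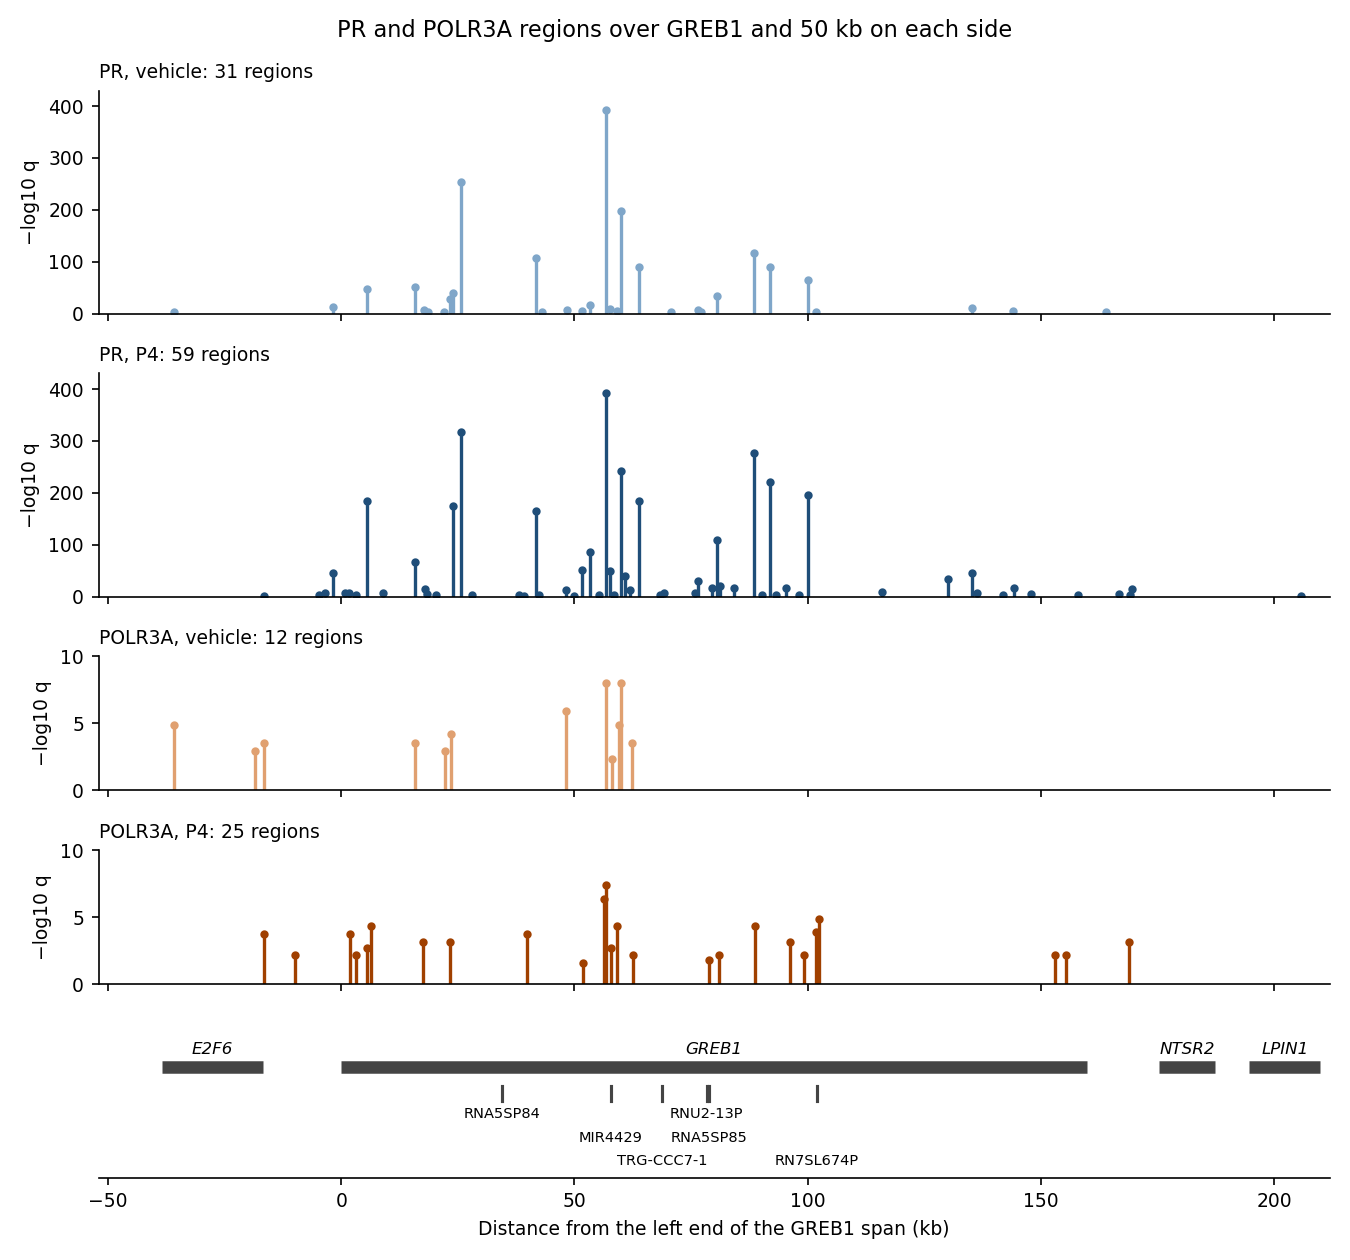
Regions of the 4 lists over GREB1 and its flanks, drawn as stems at the summit, against distance from the left end of the gene in kb; the height is the authors' −log10 q, on an axis to 430 for PR and to 10 for POLR3A. Gene spans are bars and short RNA genes and pseudogenes are ticks. The tallest PR stem stands 56.7 kb into the gene under both treatments, and no POLR3A stem reaches 10.

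The strongest PR region of the window was the same site in both lists. It ran from 11539175 to 11540154 under vehicle, with a −log10 q of 393 and a fold enrichment of 61.8. Under P4 it ran from 11539096 to 11540161, with 392 and 43.9. Both values are the authors' own and rank regions within a list only. The summit was at base 11539632 in both lists. This site ranked 44 of 38933 regions under vehicle and 224 of 111515 under P4, so it was near the top of each list without being at its head.

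The second site in each list lay at 25.7 kb, from 11508364 to 11508977 under vehicle (−log10 q 254, fold 44.4) and from 11508276 to 11508858 under P4 (316, fold 49.1). After it the order differed. The vehicle list went on with 11542522 to 11543062 (197, fold 36.6), 11571163 to 11571613 (118, fold 25.3) and 11524366 to 11524871 (107, fold 21.6). The P4 list went on with 11571135 to 11571614 (277, fold 40.1), 11541815 to 11543171 (242, fold 30.8) and 11574488 to 11575138 (222, fold 25.4). The last of these, at 92.0 kb, had 89.4 under vehicle, and the last of the vehicle sites, at 41.7 kb, had 166 under P4. All 6 sites named here and in the paragraph before lie in the gene body and each was in both PR lists.

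Every PR region with a −log10 q of 50 or more, 9 under vehicle and 14 under P4, had its summit from 5.56 to 100.1 kb into the gene. With the span cut into 4 equal stretches, from left to right, the vehicle list had 8, 13, 5 and 2 summits and the P4 list 14, 19, 11 and 7. The highest −log10 q in each was 254, 393, 118 and 11.2 under vehicle and 316, 392, 277 and 44.9 under P4. The rightmost stretch thus had the fewest summits and the lowest maximum in both lists, while its median, 8.07 and 6.65, was not the lowest. The densest 20 kb held 9 summits under vehicle (from 41.7 to 59.9 kb) and 13 under P4 (from 49.8 to 69.2 kb). Median spacing between summits was 3.34 kb under vehicle and 1.91 kb under P4.

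Neither end of the gene carried a strong PR region. The vehicle region nearest to the left end was 1.73 kb outside it, from 11480916 to 11481155, with a −log10 q of 12.1. In the P4 list this site had a value of 45.8, at percentile 91.3 of that list. The P4 region nearest to that end began 455 bp inside the gene, from 11483343 to 11483823, with 6.45. Nearest to the right end were 11646614 to 11646804 under vehicle, outside the gene (2.98), and 11640615 to 11640822 under P4, inside it (3.54). The left end is the outermost of 29 transcripts, so it need not be the start site in use.

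In each list the PR regions of the window ranked above the list's middle. The median −log10 q was 11.2 under vehicle, against 5.75 over the list, and 9.96 under P4, against 4.87. The median percentile was 70.5 and 72.5. The top 1% of the list held 2 regions of the window under vehicle and 3 under P4, the top 5% held 7 and 12, and 10 and 21 lay below the list's median. Median width was 314 bp under vehicle and 406 bp under P4, with 290 and 288 bp over the lists. The locus thus had both very strong and barely passing regions, from a −log10 q of 2.42 to 393 under vehicle and 1.73 to 392 under P4.

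Of the 31 vehicle regions, 25 shared at least 1 bp with a region of the P4 list, 80.6% (95% Wilson interval 63.7 to 90.8), and over the whole vehicle list 75.7% did. Under P4, 22 of 59 regions were shared with the vehicle list, 37.3% (26.1 to 50.05), with 25.8% over the whole P4 list. The intervals cover counting error over regions only, and regions of 1 locus are neighbours and not replicates. The counts 25 and 22 differ because 3 P4 regions each covered more than 1 vehicle region. With the lists cut to equal length, 65.6% of the P4 regions had a vehicle counterpart. That cut keeps the P4 regions with the highest −log10 q. Over the whole P4 list such regions were also shared more often (7.64% below 5, 50.9% from 10 to 50), so 65.6% is not set against 25.8%. The same limit holds for 37.3%, since the median −log10 q of the P4 regions was 9.96 in the window and 4.87 over the list. Within each range of −log10 q below 50, given next, the window's share was below that of the list.

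Overlap followed rank. All 22 vehicle regions with a −log10 q of at least 5 had a P4 counterpart. Over the whole vehicle list 82.4% did from 5 to 10, 96.4% from 10 to 50, and 100% from 50 to 100 and from 100 up. Of the 9 below 5 in the window 3 did (33.3%), where 56.4% of the list's did. All 14 P4 regions at 50 or more were shared with the vehicle list, and so were 96.0% of the whole list from 50 to 100 and 4536 of its 4537 regions from 100 up. From 10 to 50 it was 7 of 15, or 46.7%, with 50.9% over the list. None of the 9 from 5 to 10 had one, where 19.0% of the list did, and 1 of 21 below 5, where 7.64% did. The strong regions of the locus were in both lists and most of the weak ones in 1.

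**Figure D2:**
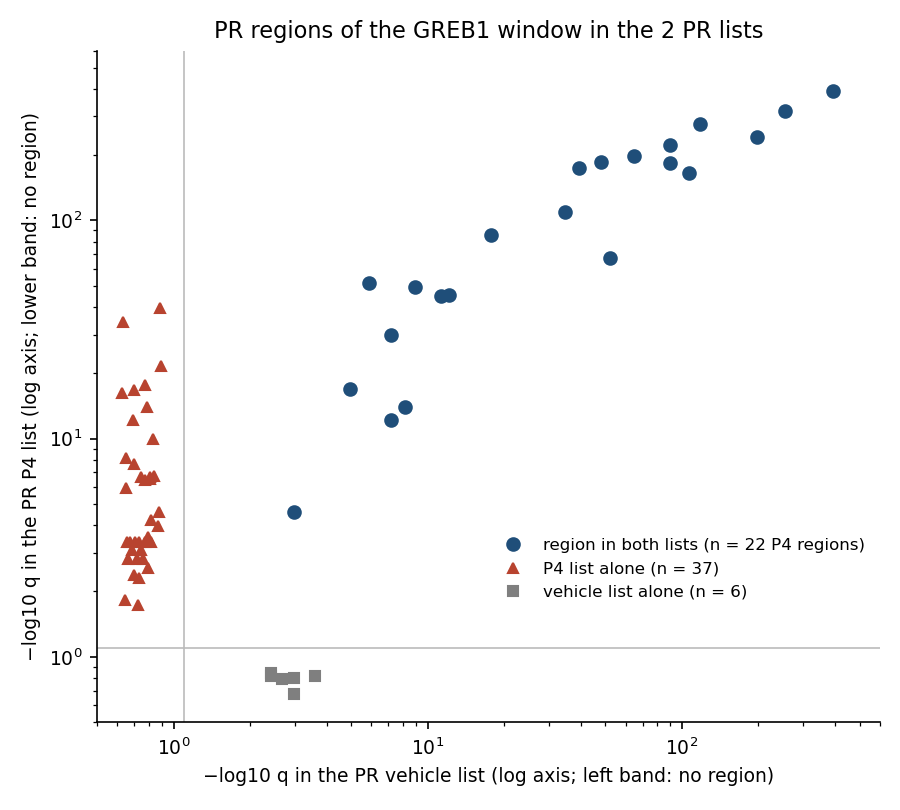
Authors' −log10 q of each PR region of the window in the vehicle list (horizontal, log axis) and the P4 list (vertical, log axis); triangles in the left band are P4 regions with no vehicle region and squares in the lower band are vehicle regions with no P4 region, both spread sideways for sight only. The 22 shared P4 regions run from 4.59 to 392, the 37 found in the P4 list alone stay at or below 39.9, and the 6 found in the vehicle list alone stay at or below 3.59.

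At the shared sites the summits nearly coincided. Between each of the 22 shared P4 regions and its strongest vehicle counterpart, the summits lay a median of 21 bp apart (0 to 186 bp), and 19 of 22 were within 50 bp. Over all 28783 such pairs of the lists the median was 29 bp, and 66.4% were within 50 bp, against 86.4% here. The pairs were not matched for −log10 q, whose median for the shared P4 regions was 97.6 here and 23.6 over the list. Spearman's rho of −log10 q between the lists was 0.92 over these 22 sites and 0.79 over all pairs, which describes sites of the same 2 lists and carries no test.

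The 37 P4 regions with no vehicle counterpart had a median −log10 q of 4.23 and a median width of 249 bp, against 97.6 and 568 bp for the 22 with one. Over the whole P4 list the median −log10 q was 3.98 without a counterpart and 23.6 with one. The highest value among the 37 was 39.9, at 11543640 to 11544155. It is 60.9 kb into the gene and between shared sites with 242 and 184 in the P4 list. Next was 34.2, at 11612845 to 11613208, 130.1 kb into the gene. A further 6 had at least 10, and 20 of the 37 were below 5. Of the 37, 30 had their summit in the gene body.

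The 6 vehicle regions with no P4 counterpart were all weak, with a −log10 q of 3.59 or less. The strongest, 11446853 to 11447043, lay within E2F6 and overlapped a POLR3A region of the vehicle list. One of the others, 11584474 to 11584831 (2.67), reached into RN7SL674P, a pseudogene of the 7SL RNA, the RNA scaffold of the signal recognition particle.

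The second comparison was between treatments for POLR3A. None of its regions in the window was near the head of its list. The 12 vehicle regions had a −log10 q from 2.38 to 8.05 (median 3.86, fold 3.46 to 5.58) and the 25 P4 regions from 1.59 to 7.37 (median 3.17, fold 2.65 to 4.71). The medians over the lists were 3.53 and 3.22, and the strongest regions of the lists had 630 and 592. No region of the window was in the top 1% of a POLR3A list, which began at 83.7 in the vehicle list and 43.2 in the P4 list. No region of the window reached 10 in either list. The window's highest values, 8.05 and 7.37, were at percentiles 87.9 and 91.2, so most regions of the lists were also below 10.

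By summit, 9 of the 12 vehicle regions and 22 of the 25 P4 regions were in the gene body. The P4 list had 2.08 times as many regions here as the vehicle list, and 1.64 times as many over chromosomes 1 to 22 and X. Cut to the 29161 regions of the vehicle list, the P4 list had 14. A −log10 q of 5 was reached by 3 of the 12 vehicle and 2 of the 25 P4 regions. Such values were a minority of the whole lists too. In the vehicle list 4.89 was at percentile 71.0 and 5.96 at 79.8, and in the P4 list 4.86 was at 77.3 and 6.34 at 88.1.

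Under vehicle, 5 of 12 POLR3A regions were also in the P4 list, 41.7% (19.3 to 68.0), with 42.0% over the whole list. Under P4, 5 of 25 were also in the vehicle list, 20% (8.86 to 39.1), with 25.8% over the list. The window thus stood near the list for both shares.

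Under vehicle the 2 strongest POLR3A regions, both with 8.05, were 11539358 to 11539777 and 11542679 to 11542898, inside the PR regions with 393 and 197. Then came 11530884 to 11531352 (5.96), 11542120 to 11542474 and 11446808 to 11447076 (4.89 each) and 11506284 to 11506475 (4.19). The regions 11545176 to 11545367, 11466067 to 11466372 and 11498645 to 11498873 had 3.53, 3.53 and 3.52. The weakest were 11464244 to 11464438 and 11505095 to 11505415 (2.93 each) and 11540832 to 11541053 (2.38). Of the 12, the 3 leftmost touched E2F6 and not GREB1.

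Under P4 the 2 strongest were neighbours at the first PR site, 11539481 to 11539813 (7.37) and 11539122 to 11539330 (6.34). They were followed by 11585166 to 11585413 (4.86), which overlapped no PR region, and by 11541838 to 11542402, 11489189 to 11489410 and 11571248 to 11571759 (4.31 each). The next were 11584644 to 11584886 (3.86) and, with 3.72 each, 11466165 to 11466365, 11484396 to 11485131 and 11522587 to 11522914. The other 15 were at or below 3.17.

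The vehicle regions ended at 62.5 kb into the gene, and the P4 list had 10 regions to the right of that point, with a −log10 q from 1.80 to 4.86. The point was set by the last vehicle region itself, so the lack of vehicle regions beyond it is fixed by that choice. In the P4 list cut to equal length, 5 of these 10 were left. PR had 12 regions in this stretch under vehicle and 28 under P4, of which 16 were left at equal length. No test was made of the difference between the POLR3A lists here. Of the 10 regions, 3 were above the median of their list (3.22), at 4.86, 4.31 and 3.86.

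The third comparison was between PR and POLR3A. Under vehicle, 8 of the 12 POLR3A regions overlapped a PR region, 66.7% (39.1 to 86.2), with 32.3% over the whole POLR3A list. Under P4, 15 of 25 did, 60.0% (40.7 to 76.6), with 50.5% over the list. From the PR side, 8 of 31 regions overlapped a POLR3A region under vehicle, 25.8% (13.7 to 43.2), with 24.2% over the list, and 14 of 59 under P4, 23.7% (14.7 to 36.0), with 20.9% over the list. For PR both shares of the window were near those of the lists. The higher share from the POLR3A side under vehicle rests on 12 regions in a window where PR regions are dense, and it was not tested.

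The share of PR regions with POLR3A was set out by −log10 q. Under P4, 5 of the 11 PR regions at a −log10 q of 100 or more overlapped POLR3A, 45.5%, and 44.0% of the list's regions did. Below 5 it was 3 of 21, or 14.3%, with 17.2% over the list. Under vehicle, 2 of 5 at 100 or more did (40.0%, list 37.3%), and 2 of 9 below 5 (22.2%, list 22.8%). Yet the second site of both PR lists, at 25.7 kb, with 254 and 316, had no POLR3A region under either treatment.

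**Figure D3:**
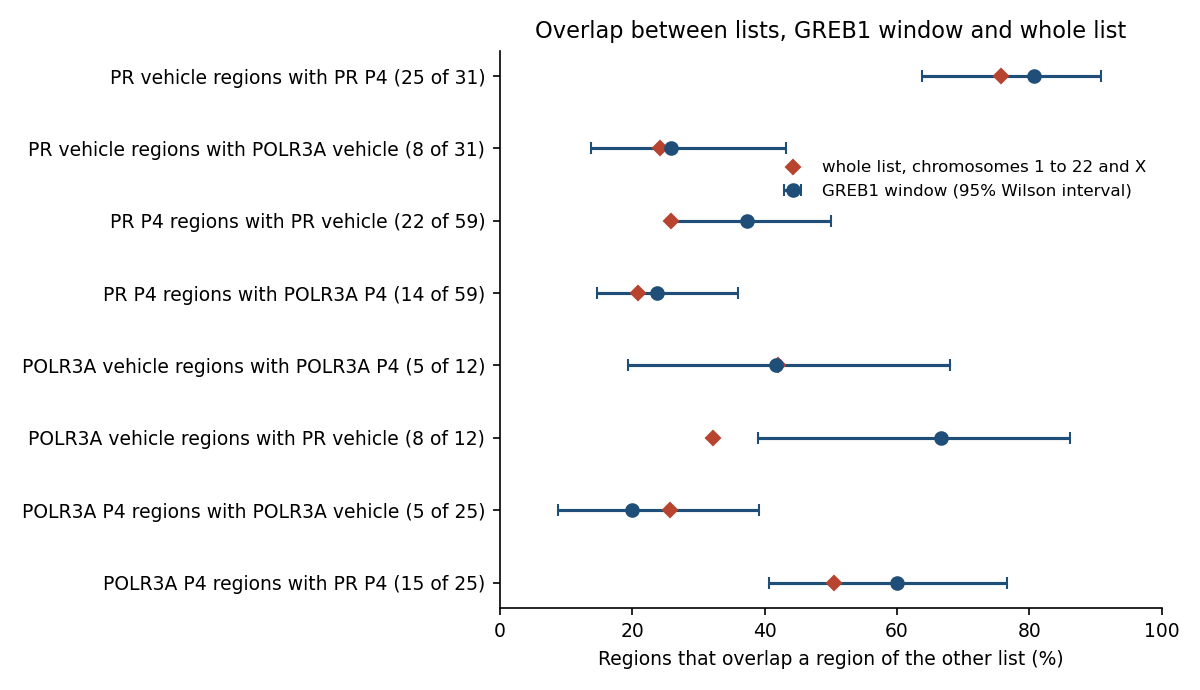
Share of regions, in percent, that overlap a region of the other list, for the GREB1 window (circles, with 95% Wilson intervals for counting error) and for the whole list (diamonds). The whole-list value lies below the interval for POLR3A with PR under vehicle (32.3% and 66.7%). It lies just below it for PR under P4 with PR under vehicle (25.8% and 37.3%), and inside the interval elsewhere. The shares are not matched for −log10 q, whose median for PR under P4 was 9.96 in the window and 4.87 over the list.

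At 3 places 1 region of each of the 4 lists overlapped, all in the gene body. The first, 11539481 to 11539777, is the strongest PR site. There both PR summits were at 11539632, and the POLR3A summits at 11539624 under vehicle and 11539626 under P4. The second was 11506284 to 11506346, at 23.4 kb. The PR vehicle region there had 28.2 and the POLR3A regions 4.19 and 3.17. The PR P4 region, with 174, is a wide one (11505334 to 11507013) whose summit, 11506840, lies outside the common stretch and next to that of another vehicle region, with 39.3. The third was 11542120 to 11542204, at 59.2 kb, with 5.64 for PR under vehicle and 4.89 and 4.31 for POLR3A. There too the PR P4 region, with 242, is wide and has its summit, 11542769, outside the common stretch and next to that of the vehicle region with 197. The P4 values of these regions are therefore not set against 28.2 and 5.64.

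Over all overlapping pairs the summits lay further apart. Between overlapping POLR3A and PR regions of the window they lay a median of 68.5 bp apart under vehicle (8 pairs) and 239 bp under P4 (15 pairs), with 83 and 115 bp over the lists.

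Short genes and pseudogenes inside GREB1 bear on POLR3A, since some descend from genes that RNA polymerase III reads. Within 100 bp of RNA5SP85, a 5S ribosomal RNA pseudogene (11561661 to 11561779), there was a PR region and a POLR3A region under P4, with a −log10 q of 16.2 and 1.80, and none under vehicle. Of 504 such pseudogenes, 2.38% had PR under P4 and 2.98% had POLR3A. RN7SL674P (11584773 to 11584972) had PR under vehicle (2.67) and POLR3A under P4 (3.86). Of 681 7SL pseudogenes, 1.47% had PR under vehicle and 3.67% POLR3A under P4. The tRNA pseudogene TRG-CCC7-1 (11551701 to 11551772) had PR under P4 (2.56) and no POLR3A, and 12.2% of 74 tRNA pseudogenes had PR under P4. RNA5SP84 and RNU2-13P, the latter a pseudogene of the U2 small nuclear RNA, had no region in any list. Every POLR3A value at these elements was below 4, far from those at the head of the lists.

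MIR4429 (11540605 to 11540677), whose mature sequence is printed above, had a PR region under vehicle (11540425 to 11540682, −log10 q 8.92) and under P4 (11540387 to 11540792, 49.4), and a POLR3A region under P4 (2.66). Over 1911 microRNA genes the shares with a region within 100 bp were 3.19%, 8.16% and 4.40% for these lists. The gene lies next to the strongest PR site of the locus.

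Few regions lay outside GREB1. E2F6 (11444375 to 11466161) had 3 POLR3A regions and 1 PR region in its span under vehicle and none under P4. Within 100 bp of the span, however, there were 1 POLR3A and 1 PR region under P4. That POLR3A region, 11466165 to 11466365, overlapped 1 of the 3 vehicle regions, 11466067 to 11466372. The E2F6 promoter window, printed above, was touched by a POLR3A region under vehicle (3.53) and P4 (3.72) and by a PR region under P4 (1.82). Of 34961 promoter windows, 13.0% had POLR3A under vehicle, 12.3% POLR3A under P4 and 19.1% PR under P4. Searched on both strands, the full progesterone response element, its core ACANNNTGT and the full oestrogen response element had no match in these 300 bases. Of all 35116 promoter windows of that length, 0.39%, 5.37% and 0.057% had one. The core is part of the full progesterone element. NTSR2, a neurotensin receptor gene (11658178 to 11670195), and its promoter had no region in any list. LPIN1, a phosphatidate phosphatase gene, reaches into the window, and the single region there was PR under P4, 11688452 to 11688697 (2.36).

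Just beyond the window's edges the lists were empty for a stretch. How usual such gaps are over the lists was not counted. Inside the window the longest gap between PR summits was 34.1 kb under vehicle and 36.2 kb under P4. The nearest PR regions outside were 40.9 kb beyond the left edge under vehicle (−log10 q 12.8) and 24.7 kb under P4 (2.75), and 58.1 and 57.9 kb beyond the right edge (5.86 and 8.14). The PR regions nearest to an edge from inside were the one within E2F6 under vehicle, 14.0 kb from the left edge, and the one within LPIN1 under P4, 4.1 kb from the right edge. Widening the flanks to 100 kb added 1 PR region under vehicle and 2 under P4.

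The number of regions was set beside that of other genes. Of the 19821 protein-coding genes counted the same way, with 50 kb on each side, 0.212% had at least 31 PR regions under vehicle and 0.484% at least 59 under P4. For POLR3A, 6.48% had at least 12 under vehicle and 2.89% at least 25 under P4. Among the 2026 genes within 1.5 times its length, GREB1 included, these shares were 0.444%, 1.33%, 5.38% and 3.55%. Windows grow with gene length. Per 100 kb of window, 482 of the 19821 genes were above GREB1 for PR under vehicle and 1381 under P4, where its 22.7 was below the 95th percentile of 25.2. For POLR3A 3557 and 2564 genes were above it. Among genes of similar length 7 and 34 were above it for PR, and 106 and 76 for POLR3A. By count, the median gene of similar length had 2 and 9 PR regions and 1 and 2 POLR3A regions. Windows of neighbouring genes overlap, so genes are not independent, and the shares describe rank without a test.

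**Figure D4:**
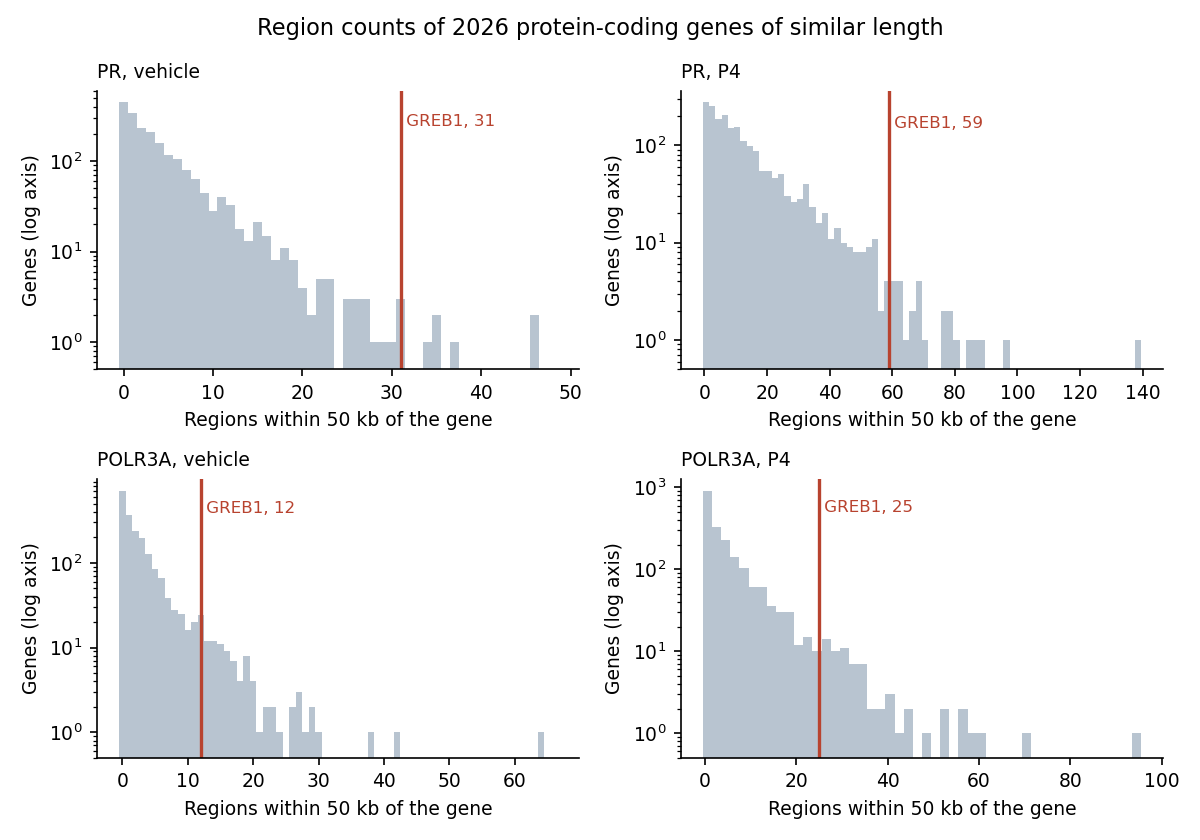
Number of regions within 50 kb of each of 2026 protein-coding genes of similar length (horizontal axis), as histograms with the number of genes on a log axis, 1 panel for each list; the vertical line marks GREB1. GREB1 stands at 31 and 59 for PR, counts that 0.444% and 1.33% of these genes reach, and at 12 and 25 for POLR3A, counts that 5.38% and 3.55% reach.

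The share of regions inside the gene, as opposed to its flanks, was also set beside such genes. Regions touching the span made up 90.3% of the window's PR regions under vehicle and 86.4% under P4. The median was 62.7% over the 232 genes of similar length with at least 10 PR regions under vehicle and 56.5% over the 950 with at least 10 under P4, and 90.1% and 96.1% of these genes had a lower share. For POLR3A the share was 75.0% and 88.0%, with medians of 47.4% and 51.9%.

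The genes most like GREB1 in their 4 counts were found among those of similar length, by Euclidean distance of log2(count + 1) over the 4 lists. DGLUCY, which encodes D-glutamate cyclase, was nearest (distance 0.27), with 27 and 61 PR regions and 13 and 28 POLR3A regions under vehicle and P4. FKBP5, a co-chaperone of steroid receptors, came next (0.41), with 25 and 50 PR and 11 and 27 POLR3A regions. They were followed by CLMN (0.43), PACS1 (0.48) and PFKFB3 (0.54). GREB1, DGLUCY and FKBP5 each had 2 PR regions of the top 1% of the list under vehicle and 3 under P4, whereas the other 3 had 0 under vehicle and at most 1 under P4.

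Other hormone-induced genes were set beside GREB1 from a pair of lists of 12, one of genes that oestrogen raises in breast cancer cells and one of genes that progesterone raises. In the oestrogen list 11 of 12 genes had a PR region within 50 kb under vehicle and 12 under P4, where 74.6% and 90.5% of all protein-coding genes did. All 12 had POLR3A under each treatment, against 68.7% and 71.9% of genes. In the progesterone list all 12 had PR under each treatment, and 8 and 9 had POLR3A. The median number of PR regions was 7.5 under vehicle and 20.5 under P4 in the oestrogen list and 6 and 12 in the progesterone list, with 2 and 8 over all genes.

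No gene of either list had as many PR regions as GREB1 in either PR list. FKBP5 and ZBTB16, a zinc finger transcription factor, came nearest, both with 50 under P4 and with 25 and 21 under vehicle. In the oestrogen list SIAH2, a ubiquitin ligase, was highest under P4 (8 under vehicle, 30 under P4), and CA12, a carbonic anhydrase, was highest under vehicle (13 and 28). TFF1, a secreted trefoil peptide, had 4 and 12, and PGR, the gene of PR itself, had 7 and 13. GREB1 is longer than most of these genes. Per 100 kb of window it had 11.9 PR regions under vehicle, which none of the 24 reached, and 22.7 under P4, which XBP1 (25.5), KCNK15 (25.4) and SIAH2 (24.6) passed. XBP1 encodes a transcription factor of the unfolded protein response.

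**Figure D5:**
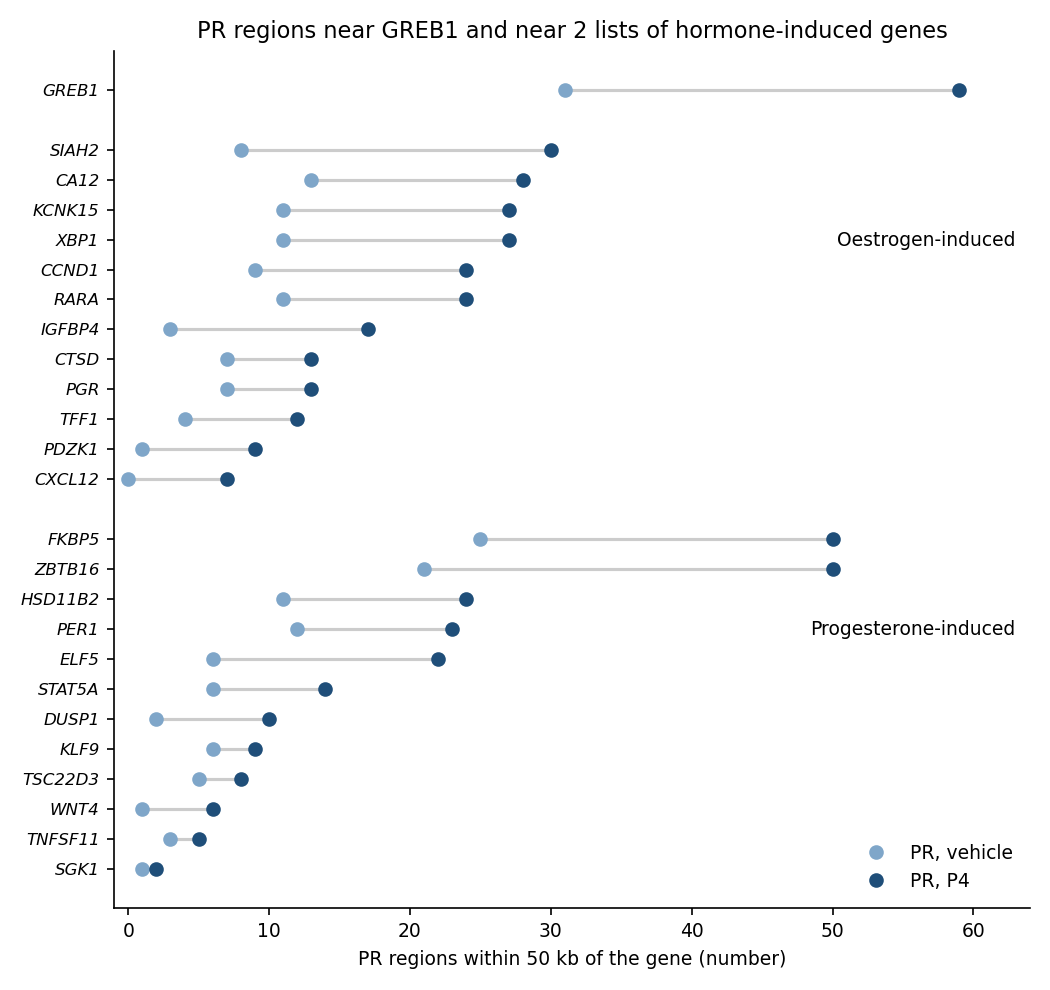
PR regions within 50 kb of GREB1 and of 24 hormone-induced genes (horizontal axis, number of regions), under vehicle (light) and P4 (dark), ordered by the P4 count in each list. GREB1 has 31 and 59, and the next highest are FKBP5 with 25 and 50 and ZBTB16 with 21 and 50.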

How the data were processed

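Chromatin immunoprecipitation sequencing covered 14 T47D libraries, and the authors deposited 4 peak lists, 1 per antibody and treatment. Per the submitters' processing notes, cutadapt, Bowtie2, MACS2 and the build hg38 were used. Versions, control and pooling of replicates are not given in the sources used here. The deposited narrowPeak columns are the score, the fold enrichment (a ratio over background), −log10 p and −log10 q of each region, as the authors' caller gave them, and the summit. The largest q-value was 0.0497. The files hold no read counts, so a difference in depth could change the length of a list.

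Regions on chromosomes 1 to 22 and X were read into 1-based coordinates. Regions were assigned to the window if they touched it, and counted as shared from 1 bp of overlap. Gene spans came from the RefSeq table of GRCh38.p14. Genes of alternate sequences were left out where start positions fell back, which kept 58419 genes. Percentiles of −log10 q are within a list. Counts of shared regions were checked with bedtools 2.31.1 and were equal in each of 2 comparisons, and the code recovered planted overlaps on simulated data. Python 3.11.15 with pandas 2.3.3 was used.

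The text names the 5 strongest PR regions of each list, all POLR3A vehicle regions and the 10 strongest under P4, the regions common to all lists and those nearest to the gene's ends, all genes in the window, and the 5 genes most like GREB1. Single regions beyond that rule were named after their values were seen. The locus, the gene lists and these rules were chosen with earlier results of these data known. A search for response elements at summits needs a genome, which was not used here. Alternatives were other −log10 q minimums, flanks, overlap rules and lists of equal length.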

Additional observations from a re-analysis of the deposited data

How the results depend on the processing

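Over 10 counts and shares, 30 of the values under other settings stayed near the reported one (within 1.5 times for a count, within the 95% interval for a share) and 22 moved further. Counts moved with the minimum of −log10 q. At 5 or more, the PR count under P4 was 38 and the POLR3A counts were 3 and 2. At 10 or more, the PR counts were 16 under vehicle and 29 under P4, and both POLR3A counts were 0, so that POLR3A shares could not be given. With lists of equal length the P4 counts were 32 for PR and 14 for POLR3A. Changing the flanks to none, 10 kb or 100 kb kept all 4 counts within 1.5 times.

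For shares at a minimum of −log10 q both lists were cut, so a counterpart below the minimum did not count. The earlier shares by −log10 q left the other list uncut and are not comparable with these. The share of PR P4 regions with a vehicle region was 52.6% at 5 or more, 51.7% at 10 or more and 65.6% with lists of equal length. The share of PR vehicle regions with a P4 region was 100% at 5 or more and at 10 or more, and 54.8% with a reciprocal overlap of at least 50%. POLR3A P4 regions with a vehicle region were 50% at 5 or more, 1 of 2. PR vehicle regions with POLR3A were 9.68% with the reciprocal overlap, 13.6% at 5 or more and 0% at 10 or more. PR P4 regions with POLR3A were 8.47%, 2.63% and 0%. The values at 5 or more and at 10 or more follow from the cut of the POLR3A lists. At 5 or more the window had 3 POLR3A regions under vehicle and 2 under P4, and at 10 or more none. They do not show how often stronger PR regions overlapped the uncut POLR3A lists. No paired analysis was possible because the 3 replicates of a group share 1 list.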

Other observations

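Weak regions of the window often carried the same score to the last digit. Of the 25 POLR3A P4 regions, 18 shared their −log10 q with another region of the window, and 7 of them had 2.21, a value held by 1651 regions of that list. In the POLR3A vehicle list 8 of 12 were tied in this way, in the PR vehicle list 8 of 31 and in the PR P4 list 17 of 59. Within the whole POLR3A lists 87.0% of regions under vehicle and 91.7% under P4 shared their value with another region. For PR it was 82.3% and 91.5%. Ties were thus common in all 4 lists, and the counts of the window are not read as a difference between the antibodies. In the PR P4 list 6 regions of the window had 3.36, as did 2411 regions of the list. Where the cut to equal length fell among tied regions, the fold and then the position decided which were kept.

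GREB1 had 3 PR regions of the top 1% of the P4 list within 50 kb. Of the 19821 protein-coding genes, 51 others had at least as many, and 14 of these had more. GSE1, which has a span of 506689 bp, had 15 such regions and 299 PR regions under P4, with 135 under vehicle. The gene was named after its values were seen. Next were KCNMA1, SLC24A3, DLG5 and PTPRJ with 5 each. None of these 5 genes had a POLR3A region of the top 1% of either list, and GREB1 had none. That is usual, since of 19821 protein-coding genes 374 had such a region within 50 kb under vehicle and 433 under P4.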
